A study of Caenorhabditis elegans with 2 samples.

Results

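Genes that face away from each other across a short stretch of DNA, with their starts side by side on opposite strands, were the setting of 434 of the 4277 sites at which the chromatin protein HMG-1.1 was mapped in whole larvae of Caenorhabditis elegans. Each site is a peak of a list that the authors called on both replicates together and kept at a threshold of the irreproducible discovery rate (IDR), which measures how well replicates rank the same peaks. A site was taken when it lay on an autosome and its summit, the highest point of the peak, was within 500 bp of the start of a protein-coding gene whose upstream neighbour starts on the other strand at most 1000 bp away. Summits within 500 bp of a transfer RNA gene start were left out, which removed 1 site. No measured level of binding entered the choice beyond the threshold of the list itself.

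The animals belonged to 1 group, strain RW12311, in which allele st12311 places TY1, EGFP and 3xFLAG tags on HMG-1.1 at its own locus on chromosome II. They were fourth-stage (L4) larvae collected at 48 hours, grown from first-stage larvae that had been starved after bleaching to synchronise them, and chromatin fragmented by sonication was precipitated with an antibody against GFP. The labels number the 2 samples as biological replicates. All tissues of the animal were sampled together, so a site used in many cells and one used strongly in few cannot be told apart, and the tagged protein is what was mapped. The control experiment that the labels name was not analysed here.

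HMG-box proteins bind the minor groove of DNA and bend it, many of them with little preference for sequence, and are found where chromatin is open. Divergent gene pairs are common in the compact worm genome, and the space between their starts carries the promoters of both genes. A nucleosome-depleted stretch often lies there, with transcription leaving in both directions. Many worm messages receive a spliced leader, and the true site of initiation is then upstream of the annotated 5′ end.

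The sequences of a few strong sites show the DNA in question. They were read from the RefSeq sequence of WBcel235 (ce11) on the plus strand, so each whole space runs from the start of the minus-strand gene on the left to the start of the plus-strand gene on the right. Capitals mark the 11 bases centred on the summit. First come whole spaces, outside the bodies of both genes, at 2 pairs among the 25 strongest whose starts lie at most 300 bp apart: chrIV:4390591-4390843 and chrII:6951301-6951525. The last has no capitals because its summit lies 68 bp inside ceh-38.
rpl-7A/set-21: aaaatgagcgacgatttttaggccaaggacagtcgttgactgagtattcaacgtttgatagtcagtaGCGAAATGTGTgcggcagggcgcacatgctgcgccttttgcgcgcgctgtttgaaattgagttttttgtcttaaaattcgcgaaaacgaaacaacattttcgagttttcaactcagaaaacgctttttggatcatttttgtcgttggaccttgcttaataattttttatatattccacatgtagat
malt-1/ceh-38: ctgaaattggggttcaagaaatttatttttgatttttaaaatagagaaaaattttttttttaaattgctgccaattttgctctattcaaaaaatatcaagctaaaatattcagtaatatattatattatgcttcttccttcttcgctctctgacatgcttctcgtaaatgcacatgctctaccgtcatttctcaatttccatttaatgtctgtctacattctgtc
Next come the summit with 50 bp to either side at the strongest site of all, between rpl-20 and Y17G9B.5 (chrIV:4750016-4750116), and the same around both summits of the strongest pair that holds 2 sites, WBGene00185102/WBGene00194913 (chrIV:15646646-15646746 and chrIV:15646848-15646948).
rpl-20/Y17G9B.5: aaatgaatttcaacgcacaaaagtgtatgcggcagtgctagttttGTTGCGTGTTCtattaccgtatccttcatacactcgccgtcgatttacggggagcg
WBGene00185102/WBGene00194913, stronger summit: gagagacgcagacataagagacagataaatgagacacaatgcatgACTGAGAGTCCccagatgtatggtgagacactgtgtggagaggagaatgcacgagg
WBGene00185102/WBGene00194913, weaker summit: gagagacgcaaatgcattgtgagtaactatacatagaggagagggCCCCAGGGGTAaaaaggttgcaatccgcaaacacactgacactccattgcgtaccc
GC content was 39.5% over the space of rpl-7A/set-21 and 28.9% over that of malt-1/ceh-38, against 45.5%, 48.5% and 49.5% in the 3 windows around summits, in the order printed.

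Divergent starts held HMG-1.1 sites more often than other starts in the list and in both replicates. Of 17242 autosomal protein-coding genes, 1616 (9.37%) carried a summit at the start, that is within 500 bp of it. Of the 3378 that belong to one of 1713 autosomal divergent pairs, 738 (21.8%) had one, against 878 of the 13864 others (6.33%). In the replicates' own lists, which hold 2613 and 3082 peaks, the share of divergent genes was 14.4% and 16.6% (15.5% ± 1.57, SD, n = 2) and that of other genes 3.54% and 4.44% (3.99% ± 0.638, SD, n = 2). The ranges of the 2 classes do not overlap. A single summit can count for both genes of a pair, so pairs were counted too: 430 of 1713 had a summit within 500 bp of either start, which is 25.1% (95% Wilson interval 23.1 to 27.2, counting error only), with 16.5% and 18.9% in the replicates (17.7% ± 1.69, SD, n = 2). In 326 of those 430 pairs (75.8%) a summit was within 500 bp of both starts. A summit near several pairs counts for each of them, here and in the shares by chromosome and distance below. With each site given to 1 pair, 412 pairs held a site. A share of pairs covers 2 starts, so it cannot be set against the share of single genes. Counted as sites, 434 lay at the 3378 divergent genes and 916 at the 13864 others, a smaller contrast than that of the gene shares.

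The share was lower where the partner was farther away. Genes whose nearest opposite start lay 1001 to 2000 bp upstream had a summit in 159 of 1819 cases (8.74%, interval 7.53 to 10.1), and in 4.84% and 6.10% in the replicates. With the window fixed at 500 bp, a summit in such a wide space cannot count for both genes, and part of the space is not searched. The share is thus not counted as in the nearer pairs, and the part of this in the difference was not tested. Among all genes outside the pairs, those with no protein-coding gene in the 500 bp upstream had a summit in 587 of 9467 cases (6.20%), those with a same-strand gene there in 232 of 3753 (6.18%), and those with an opposite-strand gene alone there in 59 of 644 (9.16%, interval 7.17 to 11.6). All 3 values lay below the 21.8% of genes in pairs. On the X chromosome, which lies outside the choice of sites, 25 of 81 pairs had a summit (30.9%, interval 21.9 to 41.6), an interval that spans the autosomal value. Among autosomes the share of pairs was 34.7% on III, 31.6% on I, 21.8% on II, 21.2% on IV and 19.1% on V, and the intervals of III and I (29.5 to 40.2 and 26.8 to 36.8) lay above those of the other chromosomes, of which the highest bound was 26.5. Genes of no divergent pair were also highest on I (9.49%) and III (7.91%), against 6.51% on II, 5.81% on IV and 4.06% on V. Higher shares on I and III were thus not limited to pairs. Within its chromosome a pair with a summit was about as central as one without: 59.1% and 58.9% lay in the central 50% of the chromosome.

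The distance between the starts went with the share of pairs occupied. The stretch searched, 500 bp to either side of each start, grows with that distance, so the classes are not searched over the same length. The part of this in the shares was not tested. With starts 1 to 250 bp apart 72 of 364 pairs had a summit (19.8%), with 251 to 500 bp 166 of 528 (31.4%, interval 27.6 to 35.5), with 501 to 750 bp 117 of 467 (25.1%) and with 751 to 1000 bp 75 of 354 (21.2%). Replicate 1 gave 12.4%, 19.7%, 16.1% and 16.4% in the same order, and replicate 2 gave 12.6%, 23.5%, 20.6% and 16.1%. The class of 251 to 500 bp was the highest and that of 1 to 250 bp the lowest in each of the 3 lists, while the classes above 250 bp overlap in their intervals within a replicate. The median distance was 461.5 bp in pairs with a summit and 490 bp in pairs without.

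**Figure D1:**
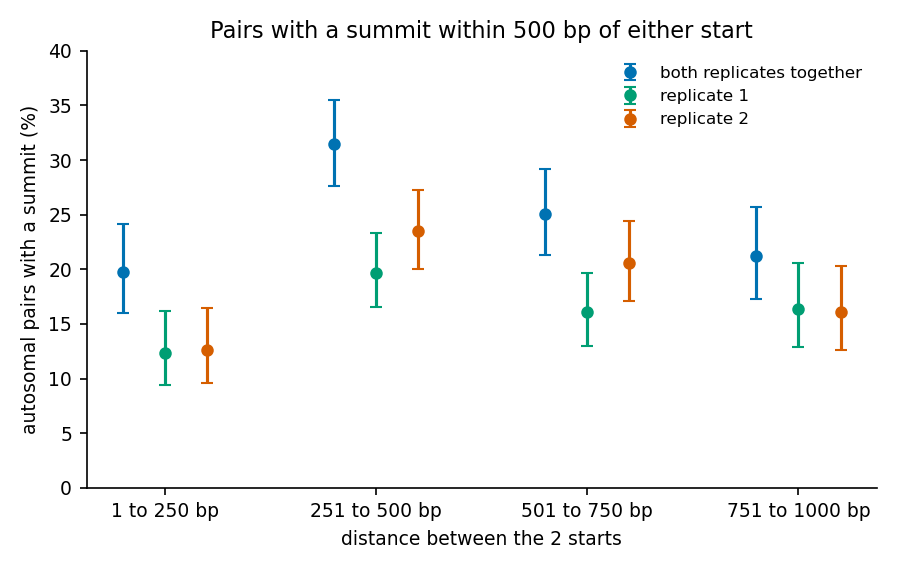
Share of autosomal divergent pairs with a summit within 500 bp of either start (vertical axis, %), by the distance between the starts (horizontal axis), for the list called on both replicates and for each replicate's own list; points are shares and bars 95% Wilson intervals. The class of 251 to 500 bp is the highest in all 3 lists (31.4%, 19.7% and 23.5%).

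Most summits sat in the space between the starts. Of the 434 sites, 364 (83.9%, interval 80.1 to 87.0) lay between the starts of their pair, with 85.6% and 83.2% in the replicates (84.4% ± 1.65, SD, n = 2). Per length of sequence this was 434 summits per Mb between divergent starts, against 42.1 per Mb in the rest of the 500 bp windows around those starts. The 500 bp upstream of other autosomal starts held 109 per Mb (125 per Mb where no protein-coding gene lies), the 500 bp downstream of them 24.6 and the rest of the autosomes 27.4. In replicate 1 the space between divergent starts held 298 per Mb and the upstream of other starts 65.8, and in replicate 2 they held 338 and 81.5. The order was thus the same in the 3 lists. The space between divergent starts is shared by 2 genes, so its density is not measured like that of the 500 bp upstream of 1 start. A place upstream of the nearest protein-coding start was common to both kinds of site. It held for 84.1% of the 434 sites and for 81.8% of other autosomal start sites.

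The median site was at -119.5 bp from the nearer start of its pair, where negative means upstream (quartiles -196 and -37.25 bp), and the median was -124 bp in each replicate's list. Sites at other autosomal starts had a median of -164 bp (quartiles -281 and -36), but there the distance is to 1 start and can reach 500 bp, so the 2 values cannot be set against each other. Between the starts, the median was -49 bp in pairs 1 to 250 bp wide, -120 bp at 251 to 500, -187 bp at 501 to 750 and -244 bp at 751 to 1000. In replicate 1 those medians were -49, -118, -181 and -237 bp and in replicate 2 -49, -123.5, -191 and -238 bp. A distance to the nearer of 2 facing starts cannot exceed 50% of the space, so its range grows with the space. The median summit between starts was 80 bp from the midpoint. The central 50% of the space held 228 of the 364 summits that lay between starts (62.6%, interval 57.6 to 67.5; 63.5% and 62.9% in the replicates). This central share was 66.4% at 251 to 500 bp and 67.0% at 501 to 750 bp. At 1 to 250 bp it was 48.8% and at 751 to 1000 bp 55.4%, and both intervals there include 50%. The plus-strand start was the nearer one for 53.5% of sites (interval 48.8 to 58.1, which includes 50%), with 58.1% in replicate 1 (52.3 to 63.6) and 52.9% in replicate 2 (47.6 to 58.2).

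**Figure D2:**
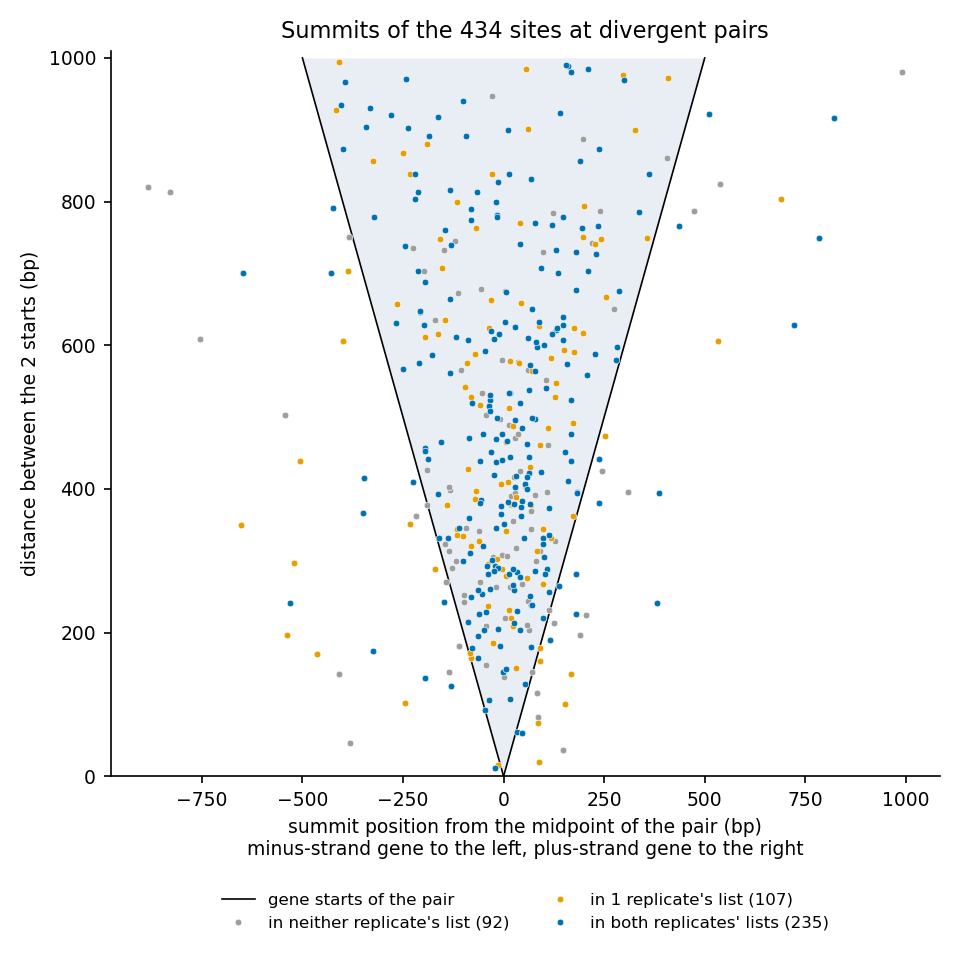
Position of each of the 434 summits from the midpoint of its pair (horizontal axis, bp) against the distance between the starts (vertical axis, bp). Lines mark the starts, the shaded wedge is the space between them, and colours give the number of replicate lists that hold an overlapping peak; 364 summits fall inside the wedge, and 70 lie outside it.

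The 70 sites outside the space lay on the gene side of the nearer start, and their pairs were narrow, with a median distance of 292.5 bp. In pairs at most 250 bp wide 41 of 72 sites (56.9%) lay between the starts, against 88.7%, 92.4% and 85.5% in the wider classes. The peaks themselves are wide compared with such spaces. Their median width was 376 bp, and the interval of 200 peaks (46.1%) took in 1 start of the pair, that of 60 (13.8%) both and that of 174 (40.1%) neither. The same 376 bp was the lower quartile, median and upper quartile of all 4277 sites. Peak width, and with it the number of starts taken in, may thus not measure the extent of binding. Sites between the starts had the higher signal, the authors' enrichment value per peak on a scale that is not stated: the median was 134 there and 97.6 outside. Near the limits of the choice, the last summits taken were 477 and 500 bp from a start, with signals of 97.0 and 59.1, and the first left out were 510 and 517 bp away, with 199 and 126. The widest pairs taken were B0495.9/sre-1 at 994 bp and bath-42/prp-8 at 990 bp, and the next beyond the limit with a summit were spd-1/Y34D9A.3 at 1007 bp and xrep-4/cey-2 at 1018 bp.

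Sites at divergent starts ranked above other autosomal start sites in signal by a small margin. Their median signal was 128 (quartiles 92.3 and 193, range 2.79 to 1022), against 111 at 916 other autosomal start sites and 148 at the 25 divergent sites of X. As a rank within the list the medians were the 59.0th, 50.3rd and 66.9th percentile. In the replicates' own lists the sites at divergent starts were at the 53.8th and 54.9th percentile (54.4 ± 0.795, SD, n = 2) and the others at the 50.98th and 49.5th (50.2 ± 1.07, SD, n = 2), so the gap was smaller there, although the ranges stay apart. Leaving out pairs with a cytosolic ribosomal protein gene left 393 sites with a median signal of 125, at the 57.7th percentile. Median signal was 117, 125, 128 and 153 in pairs of increasing width.

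Replicate 2 gave the higher value at most sites. A replicate's value here is the signal of the strongest peak in its ranked list that overlaps the site, and 425 of the 434 sites had one in both. Across those 425 sites Spearman's rho between the replicates was 0.840, a description over sites that share the same 2 libraries. Signal was higher in replicate 2 at 308 of them (72.5%), and the median ratio of replicate 2 to replicate 1 was 1.17, as it was at other autosomal start sites (1.17). Apart from this comparison of the replicates, signals were compared within a list only. The replicates' values come from separate lists of unstated scale and unknown depth, so a higher value need not mean more binding. At the stricter level of the thresholded lists, 235 sites (54.1%, interval 49.4 to 58.8) overlapped a peak in both replicates, 107 (24.7%) in 1 and 92 (21.2%) in neither. Other autosomal start sites had 46.9%, 23.8% and 29.3%. Median signal was 186 for sites in both lists, 104 in 1 and 75.6 in neither, and 44 sites (10.1%) had a q-value above 0.05, which the authors' IDR threshold allows. For sites in both lists the summit was a median of 9 bp from that of replicate 1 and 10 bp from that of replicate 2.

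The strongest site lay between rpl-20, which encodes a protein of the large ribosomal subunit, and Y17G9B.5, at chrIV:4749927-4750215. Its signal was 1022 in the joint list, where it ranked 4th of all peaks, 459 in replicate 1 and 548 in replicate 2, and its summit was 288 bp upstream of rpl-20 and 174 bp upstream of Y17G9B.5. The second was at K01G5.10/tasp-1 (chrIII:10759087-10759439), 55 bp upstream of tasp-1, which encodes a threonine aspartase, with 939 jointly, 434 in replicate 1 and 496 in replicate 2. At both sites replicate 2 gave the higher value. The third was at F44E5.4/F44E5.5 (chrII:11759281-11759662), a head-to-head pair of Hsp70 chaperone genes with starts 351 bp apart. Its summit was 177 and 174 bp from the starts, close to the midpoint, and its signal was 737, with 338 and 402 in the replicates. The Hsp70 copies are near-identical to each other, yet in the window of 50 bp to either side of the summit at least 95% of the 32-base words occur once in the genome.

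The next sites were as follows. The pair rpl-15/K11H12.8 had a signal of 728 (324 and 395 in replicates 1 and 2). The pair drr-2/set-16 joins a gene of a translation initiation factor-like RNA-binding protein to one of a histone H3 lysine 4 methyltransferase, and had 701 (316 and 374). The pair cct-8/Y55F3AR.2, with a subunit of the cytosolic chaperonin, had 669 (311 and 347). In these 3 pairs replicate 2 was higher each time and the summit lay between the starts. The pair iff-2/F54C9.14, with a gene of the translation factor eIF5A, had 647 (307 and 341). The pair Y22D7AL.10/hsp-60, with the mitochondrial chaperonin gene, had 541 (266 and 275), with its summit at -618 bp from hsp-60, too far for that gene to count as occupied below. The pair rps-19/hsr-9 had 513 (246 and 271) and ifet-1/rps-1 had 512 (218 and 296), each with a gene of the small ribosomal subunit.

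Of the 25 strongest sites that both replicates' lists hold, which run from 365 to 1022, 22 lay between the starts and 8 belonged to a pair with a cytosolic ribosomal protein gene. They were spread over the chromosomes as 7 on II, 7 on IV, 6 on III, 4 on I and 1 on V. The list also includes sec-61.B/trap-3, 2 genes of the protein-translocating channel of the endoplasmic reticulum and its partner complex (signal 500, with 234 and 274 in the replicates), gmps-1/cap-2, a GMP synthase and an actin-capping subunit (451, with 240 and 206), and mig-5/cct-1, a Dishevelled protein and a chaperonin subunit (443, with 214 and 215). The pair rpl-12/lin-54 joins a ribosomal protein to the DNA-binding subunit of the DREAM repressor complex and had 462 (202 and 268). Replicate 1 was the higher at gmps-1/cap-2 and at mcrs-1/atp-1 (185 against 181), the latter with a subunit of ATP synthase, and the replicates were farthest apart at F55A11.1/syx-5, where replicate 1 had 114 and replicate 2 had 237. The summit of F55A11.1/syx-5 was also poor in GC, at 27.7%.

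**Figure D3:**
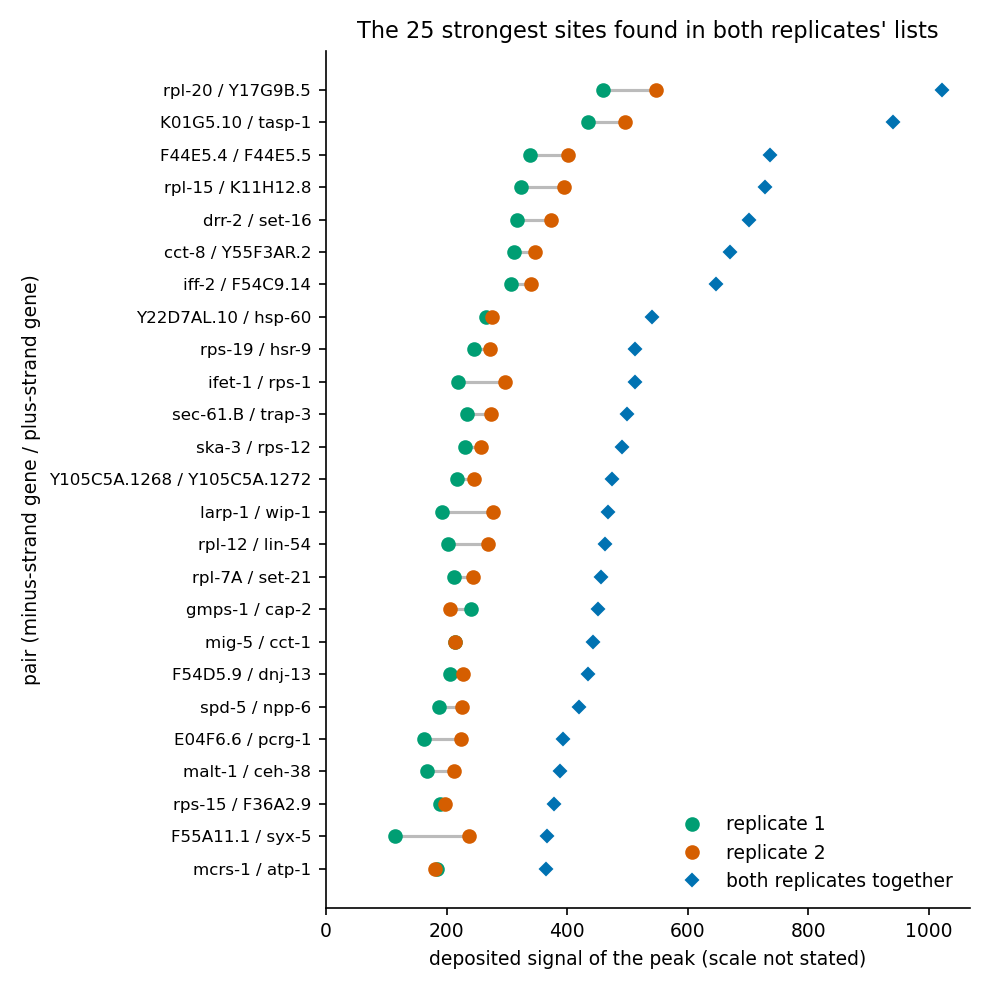
Deposited signal (horizontal axis, scale not stated) of the 25 strongest sites found in both replicates' lists, named by their minus-strand and plus-strand genes (vertical axis): circles are the replicates and diamonds the list called on both together. Replicate 2 is the higher at all but gmps-1/cap-2 and mcrs-1/atp-1, and the widest gap is at F55A11.1/syx-5 (114 and 237).

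Some sites lie in repeated sequence, where reads may not be placed with certainty. How the authors treated reads that match several places is not given in the sources used here. In 417 of the 434 sites at least 95% of the 32-base words in that window occur once in the genome, and in 17 sites fewer do. Among the 25 strongest these are WBGene00185102/WBGene00194913 (68.6%), rpl-7A/set-21 (81.4%) and spd-5/npp-6 (87.1%). At the weaker summit of the WBGene00185102/WBGene00194913 pair, printed above, the value was 17.1%.

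With each site given to 1 pair, the 434 sites belonged to 412 pairs, of which 390 held 1 site and 22 held 2. In 17 of those 22 pairs the peaks touched or overlapped. The summits of the 22 pairs were a median of 207 bp apart (quartiles 202 and 229.75, range 199 to 912). Most values were thus close to the smallest, so this spacing, like peak width, may not measure binding. At WBGene00185102/WBGene00194913 the summits were 202 bp apart, with a signal of 474 for the stronger and 58.6 for the weaker. At ecps-1/atx-2 both summits lay between the starts, 581 bp apart in a space of 838 bp. At F40F11.3/mig-38, with starts 241 bp apart, the summits were 912 bp apart and neither lay between the starts. Where peaks touch, the replicate values of the weaker summit can be those of its neighbour, because they were taken from the strongest overlapping peak.

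Cytosolic ribosomal protein genes were the list most often occupied among those with at least 10 divergent genes. The lists were fixed by gene name and chosen with earlier results of these data known, so their counts are descriptions, set beside the 21.8% of all divergent genes. Names can miss genes of a class: the Hsp70 genes F44E5.4 and F44E5.5, for example, are on no list. A replicate count is the number of divergent genes of a list with a summit in that replicate's own list, and these need not be the genes counted in the joint list. Of 48 ribosomal protein genes in divergent pairs 37 (77.1%) had a site in the joint list, the replicates' own lists had 30 and 35 such genes, and of the 31 others 20 (64.5%) had a summit at the start. Their median signal was 192. In the 38 sites whose pair has 1 such gene, the starts were a median of 532.5 bp apart. The summit was a median of 299.5 bp upstream of the ribosomal start (quartiles -378.75 and -241.5) and 190 bp upstream of the partner's. In 25 of the 38 (65.8%, interval 49.9 to 78.8, which includes 50%) the summit was nearer to the partner. At rps-26 with tmem-107 it was 424 bp upstream of the ribosomal start with starts 457 bp apart, and at rpl-30 with pab-1, the poly(A)-binding protein gene, 380 bp upstream with starts 378 bp apart. By contrast it was 34 bp upstream of rpl-12 and 73 bp upstream of rpl-7A. All 3 pairs made of 2 ribosomal protein genes had a site: rps-10/rpl-24.1 with a signal of 227 (132 and 108 in the replicates), rpl-39/rps-30 with 205 (104 and 104) and rps-14/rpl-36 with 132 (53.0 and 76.8). The pair of rpl-28 and the mitochondrial ribosomal gene mrpl-49 had none.

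Genes of translation, folding and energy metabolism were above the 21.8% of all divergent genes as well. Of 20 divergent translation factor genes 10 had a site (50%; 7 and 9 in the replicates), against 4 of 16 others (25%). The elongation factor genes eef-1G (signal 339, 170 and 167 in the replicates), eef-1A.1 (313, 141 and 171) and eef-2 (273, 120 and 153) were among them, and the summit was 23 bp upstream of eef-1G and 5 bp inside eef-2 but 377 bp upstream of eef-1A.1. Of 27 divergent chaperone genes 17 had a site (63.0%; 13 and 14 in the replicates), against 6 of 27 others (22.2%). They include the chaperonin genes cct-8, cct-1, cct-7, cct-6 and cct-5, the mitochondrial Hsp70 gene hsp-6 (177, 67.1 and 112) and the DnaJ gene dnj-13 (435, 206 and 228). The heat-inducible head-to-head pair hsp-16.2/hsp-16.41 had a site of 113 (70.3 and 52.3), 13 bp upstream of hsp-16.41. Respiratory chain and ATP synthase genes had 11 of 20 (55%; 6 and 5 in the replicates), against 10 of 24 others (41.7%), led by atp-1 (365) and atp-3 (191, 75.4 and 117). Mitochondrial ribosomal protein genes had 9 of 26 (34.6%; 6 and 8 in the replicates' own lists), against 4 of 44 others (9.09%), led by mrps-7 (348, 151 and 197).

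Genes of RNA processing, nuclear transport and the cell cycle were also above the 21.8% of all divergent genes. Splicing genes had 12 of 22 (54.5%; 9 and 7 in the replicates), against 4 of 15 others, and both pairs made of 2 splicing genes were occupied. These are rsp-2/rsp-1, which encode SR proteins (284, 140 and 150), and snr-3/rsp-5 (104, 74.0 and 36.2). Nuclear pore and transport genes had 10 of 20 (50%; 6 and 7), against 9 of 20 others, led by npp-6 (419, 188 and 226) and npp-3 (335, 142 and 190). The summit counted for npp-6 was 412 bp upstream of its start and 237 bp inside its partner spd-5. The list for DNA replication and the cell cycle had 9 of 23 (39.1%; 9 and 7 in the replicates' own lists, the peak at orc-1 overlapping none in either), against 10 of 38 others (26.3%), led by rfc-4, a clamp loader subunit, which shares its site with eef-1A.1. All 4 divergent genes of the DREAM and synMuv B list had a site, 3 in replicate 1 and 4 in replicate 2: lin-35, the worm retinoblastoma gene (229, 107 and 129), lin-53 (351, 151 and 207), lin-54 and lin-61, which had no overlapping ranked peak in replicate 1 (89.7 jointly and 55.6 in replicate 2). Aminoacyl-tRNA synthetase genes had 4 of 11, led by ears-2 (344, 141 and 194), 1 bp upstream of its start. RNA polymerase and general transcription genes had 4 of 12, led by the Mediator gene mdt-26 (344, 170 and 161), and vacuolar ATPase genes 2 of 6, vha-8 (275, 102 and 168) and vha-1 (180, 103 and 88.8). Proteasome genes had 5 of 21 (23.8%), near the value of all divergent genes and below the 4 of 12 among other proteasome genes (33.3%), led by rpn-3 (224, 83.0 and 141), which shares its site with the chaperone gene hsp-110.

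Chemoreceptor, C-type lectin and F-box genes had low shares in both arrangements. Chemoreceptor genes had a site in 2 of 129 (1.55%), against 2 of 1147 others (0.174%), led by sri-5 (257, 135 and 119 in the replicates) with the splicing-related gene rsr-1, and none of the 20 pairs made of 2 chemoreceptor genes had one. C-type lectin genes had 1 of 53, clec-57 (129, 69.1 and 63.0), and 0 of 12 lectin pairs, against 2 of 184 others. F-box and MATH genes had 5 of 90 (5.56%), led by fbxb-85 (337, 168 and 168) beside the hexosaminidase gene hex-3, and 1 of 17 pairs, against 3 of 305 others (0.984%). Cytochrome P450, UGT and GST genes had 1 of 27, gst-43 (92.3, 31.4 and 61.5) with the coatomer gene copa-1, against 4 of 144 others. Cuticle collagens had 1 of 19, col-38, whose site of 192 is that of rpl-5, against 3 of 110 others. Nuclear hormone receptors had 1 of 18 (5.56%), nhr-47, which shares a site of 351 with dnj-19, against 13 of 228 others (5.70%). Neuropeptide and insulin genes had 1 of 10, nlp-4 (67.1, 36.8 and 31.99) beside the exosome gene exos-3, against 1 of 96 others. With 10 to 27 divergent genes, the shares of these last 4 lists are imprecise.

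Histone genes had a low share. Most are arranged in divergent pairs, and 30 pairs consist of 2 of them, but 3 of those 30 had a site and 6 of 60 divergent histone genes (10%) did, below the 21.8% of all divergent genes. The sites were at his-61/his-62 (106, with 46.7 and 50.3 in replicates 1 and 2), his-67/his-68 (84.2, 29.1 and 45.9) and his-6/his-5 (83.9, 36.1 and 52.3). Of the 15 other histone genes 2 had a summit (13.3%). No divergent histone gene had a summit in the thresholded list of replicate 1. In that of replicate 2, 6 had one, and no peak of either thresholded list overlapped the site at his-67/his-68. Histone genes are present in many near-identical copies, and the part of this in the low share was not tested. None of the 3 sites is among the 17 in repeated sequence, but words were counted at sites only. Histone pairs without a site were thus not scored. In all, 159 of the 434 sites (36.6%) had a gene of at least 1 of the 21 lists.

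**Figure D4:**
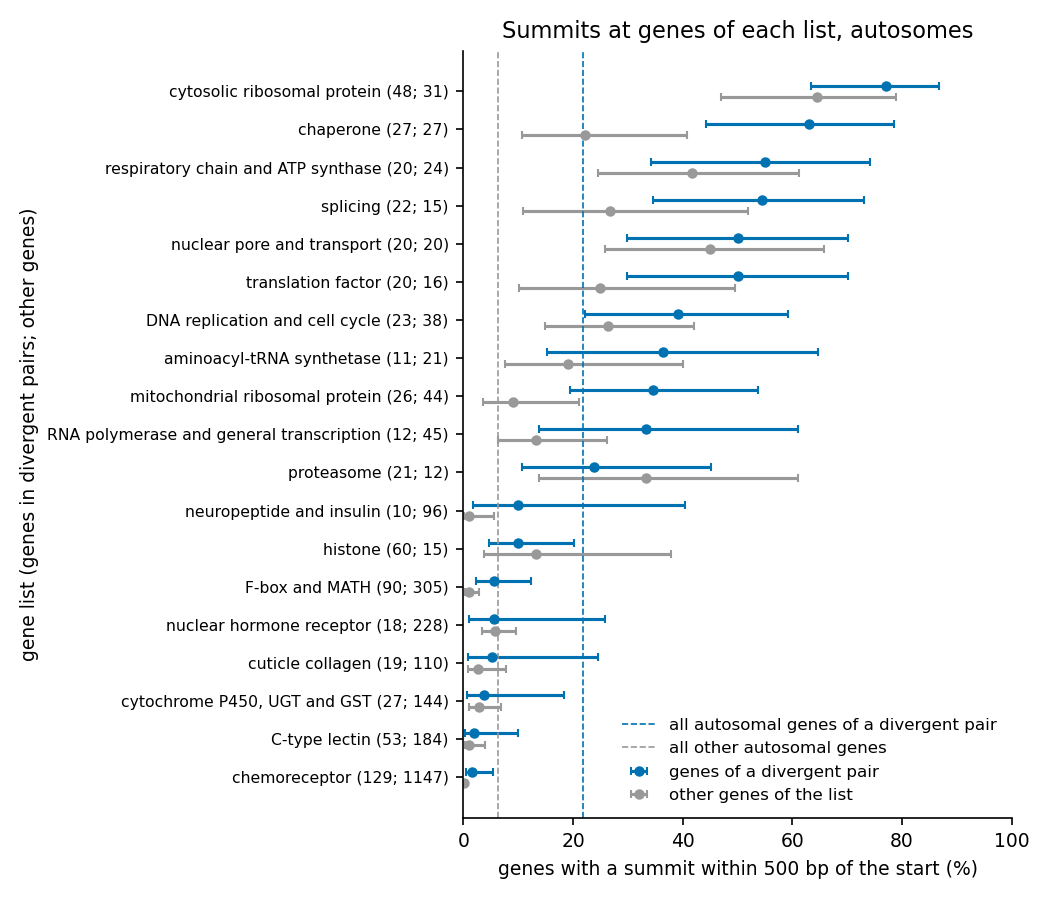
Share of genes whose start has a summit no more than 500 bp away (horizontal axis, %) for each list with at least 10 genes in autosomal divergent pairs (vertical axis, with the numbers of divergent and other genes); points are shares, bars 95% Wilson intervals, blue for genes in divergent pairs and grey for the others, and dashed lines mark 21.8% and 6.33% for all autosomal genes of each kind. Cytosolic ribosomal protein genes are at 77.1% and 64.5%, chemoreceptor genes at 1.55% among divergent genes.

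Occupied divergent genes differed from the unoccupied in arrangement too. Of the 738 with a summit, 251 (34.0%, interval 30.7 to 37.5) were followed within 500 bp of their end by the start of another gene on the same strand, as in worm operons, against 567 of 2640 without (21.5%, interval 20.0 to 23.1). The same comparison among other genes gave 31.0% and 17.3%, so this difference was not limited to divergent pairs. Their median length was 2158.5 bp against 1681.5 bp, and 70.3% carried a gene symbol rather than a sequence name alone, against 55.1%. Among other genes the same values were 2870 against 1991 bp and 68.9% against 53.7%, so these differences too were not limited to divergent pairs.

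The DNA under the summits was richer in G and C than its surroundings. In the window of 50 bp to either side of the summit the median GC content was 47.5% (quartiles 42.6 and 52.5), against 38.6% in windows 500 bp to either side, a median difference of 7.92 points, and 345 of the 434 sites (79.5%, interval 75.4 to 83.0) were richer at the summit. At other autosomal start sites the summit had 46.5% and the flanks 36.6%, with a difference of 10.4 points, and at divergent sites of X it had 49.5% and 34.2%, with 17.8 points. A divergent pair has a gene to either side, which other starts need not have. Flanks are thus not placed alike at divergent and other starts, and their differences cannot be set against each other. The whole space between the starts was not GC-rich: its median was 33.9% in pairs with a summit and 32.8% in pairs without. At the midpoint the median was 35.6% in pairs with a summit and 33.7% in pairs without. GC content was thus raised over a short stretch within an AT-rich space. In the mean profile it was 49.4% at the summit, dropped to 31.2% at 125 bp on one side and 31.0% on the other, and was 39.6% and 39.2% at 500 bp. Other autosomal start sites had shallower dips, at 34.8% and 35.2% at the same distance.

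**Figure D5:**
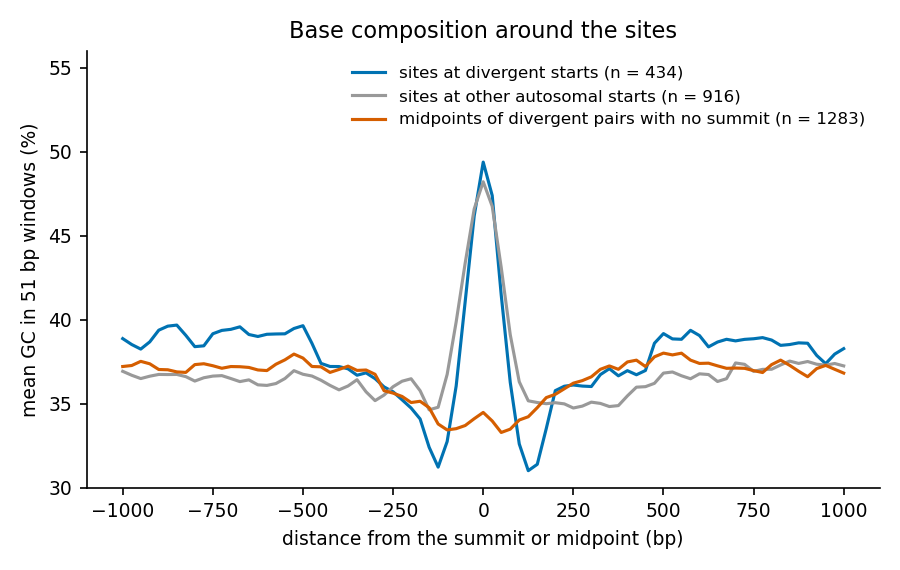
Mean GC content in 51 bp windows (vertical axis, %, starting at 30) against the distance from the summit, or from the midpoint for divergent pairs with no summit (horizontal axis, bp); lines are means over the sites. Sites at divergent starts peak at 49.4% and dip to 31.2% and 31.0% at 125 bp, while the midpoints of pairs with no summit are at 34.5%, with 37.7% and 38.0% at 500 bp.

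Short motifs were counted on both strands in the 100 bp to either side of the summit. A GC box (GGGCGG) was found at 61 of 434 sites (14.1%), against 11.5% of other autosomal start sites, 5.07% of windows at the midpoint of pairs without a summit and 3.46% of flanks 500 bp away. The TATA box letters TATAAA were found in 12.2%, against 15.4% of other start sites, 30.01% of midpoints without a summit and 15.4% of flanks, and the GATA-type letters TGATAA in 9.45%, against 9.61%, 20.3% and 15.4%. The element CTGCGTC was in 11.5%, against 20.5%, 2.03% and 2.07%, and GAGAGA in 27.6%, against 39.0%, 11.5% and 11.98%. These last motifs can share bases where they lie side by side. Both were above pairs without a summit and below other autosomal start sites. A window at a summit is not placed like one at a midpoint, so the midpoints of pairs with a summit were counted too. There the GC box was in 8.84%, TATAAA in 19.5%, TGATAA in 16.7%, CTGCGTC in 8.37% and GAGAGA in 19.5%.

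The letters bound by sequence-specific HMG-box factors were at or below the shares in flanks and in pairs without a summit, and above those at other autosomal start sites. The SOX-type letters AACAAT were in 19.8%, against 16.0% of other start sites, 26.6% of midpoints without a summit and 20.3% of flanks, and the TCF-type letters ATCAAAG in 2.30%, against 1.75%, 3.51% and 3.69%. The E-box CACGTG was in 4.15%, against 6.22%, 3.90% and 3.00%, the E2F-like letters TTCCCGC in 3.92%, against 5.02%, 2.49% and 2.30%, and the CCAAT box in 30.9%, against 27.5%, 30.6% and 33.9%. Runs of TTTTTT were in 65.4%, against 55.6%, 70.8% and 53.5%. At the midpoint of pairs with a summit AACAAT was in 25.8% and ATCAAAG in 2.56%, closer to the midpoints without a summit. The E-box was there in 3.95%, the E2F-like letters in 4.19%, the CCAAT box in 29.8% and the T run in 73.7%. The base composition of the windows differs between these classes, and its part in the motif shares was not tested. Of the whole spaces printed above, that of rpl-7A/set-21 holds 1 TATA box match and 2 of the T run, with overlapping matches counted, and that of malt-1/ceh-38 holds 6 of the T run and 2 of the CCAAT box. The stronger window of WBGene00185102/WBGene00194913 holds 1 match each of the CTGCGTC and GAGA elements, and the window of rpl-20/Y17G9B.5 none of the 11 motifs.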

How the data were processed

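The peak lists were made by the authors on the ce11 assembly, per the labels, from replicate alignments and a control alignment, per the deposited file listing. Neither aligner nor caller is given in the sources used here. The authors' score is an IDR on a scaled range, at least 830 in the main list. The authors' signal is the enrichment at the peak, of unstated scale, and served for ranks and comparisons within a list. Deposited by the authors too were the −log10 of the q-value and of the global IDR, and the summit offsets, here turned into 1-based positions. Read counts are not part of the lists, so depth is unknown. In the ranked lists, 32 columns of per-replicate values carry no names and were not used.

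The list the authors call conservative was the main one, with each replicate's own list beside it. Gene starts came from Ensembl release 115 (outermost 5′ ends) and sequence from RefSeq, both of WBcel235. A site was given to the pair with the nearest midpoint. Overlap means at least 1 bp. Intervals are 95% Wilson intervals for counting error. With 1 group there is no condition to test, and no test was made over sites. The sites, the 21 gene lists, the 11 motifs and the alternatives were chosen with earlier results of these data known. The split of other genes by their upstream neighbour, the count of repeated 32-base words and 2 alternatives were chosen after seeing the values. Genes were named by rule: the 25 strongest sites in both lists, up to 3 per gene list, and pairs at the extremes. The chaperonin genes and the examples of position at ribosomal protein genes beyond these were chosen after their values were seen, as was the window at rpl-20. The sequence of 1 pair and 1 chemoreceptor site are not reported here. Python 3.11.15, pandas 2.3.3, numpy 2.4.6, statsmodels 0.14.6 and matplotlib 3.10.9 were used, and the geometry functions were tested on simulated data.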

Additional observations from a re-analysis of the deposited data

How the results depend on the processing

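The median site stayed upstream of its start, and most sites stayed between the starts, under all the alternatives run. Taking the stronger 50% of the list by signal gave 266 sites in 16.2% of pairs, with 90.2% between the starts, a median position of -134.5 bp, 83.5% in both replicates' lists and 49.5% GC. Starts at most 500 bp apart gave 240 sites, 79.2% between, -69.5 bp, the 56.9th signal percentile and 46.5% GC, and starts at most 2000 bp apart gave -136 bp, the 57.5th percentile and 46.5% GC. A q-value of at most 0.05 gave 23.3% of pairs, 86.2% between, -123.5 bp, the 55.2nd percentile and 59.0% in both lists. Summits within 250 bp gave 21.4% of pairs, 86.0% between, -109 bp and 47.0% GC, and within 1000 bp 76.8% between and -106 bp. Any transcript start gave 87.5% between and -140 bp, tRNA-near summits kept gave -119 bp, and the authors' other thresholded list gave the 60.1st percentile. Requiring 50% reciprocal overlap put 41.7% in both lists. GC content was 50.98% with 25 bp to either side of the summit and 41.3% with 100 bp. Chosen after seeing the data, a global IDR of at most 0.001 gave 17.2% of pairs, 88.4% between, -131.5 bp, the 51.9th percentile, 79.8% in both lists and 48.5% GC, and the strongest summit of touching peaks gave -123 bp and the 57.5th percentile. The cause of these moves was not tested. A global IDR of at most 0.01 leaves the list as deposited.

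With 1 replicate left out, that is with the other replicate's own list, there were 291 to 340 sites in 16.5% to 18.9% of pairs, 83.2% to 85.6% between, -124 bp in both, the 53.8th to 54.9th percentile and 48.5% GC in both. The list called on both replicates thus gave more occupied pairs than either replicate alone. No paired analysis was possible because there is 1 group. Depth is unknown, so an unoccupied pair may be one not detected at the depth of these libraries.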

Other observations

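Non-coding genes also start near these sites. A gene annotated as ncRNA began within 500 bp of 57 of the 434 summits (13.1%, 95% Wilson interval 10.3 to 16.6), against 90 of 916 other autosomal start sites (9.83%, interval 8.06 to 11.9), and a snoRNA gene within 500 bp of 9 (2.07%) against 22 (2.40%). The intervals overlap in both comparisons. No long intergenic RNA start lay that near in any of the 434 sites, which allows a share of up to 0.877% (upper Wilson limit).

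The strongest sites that neither replicate's thresholded list holds were at rde-8/ZC477.3 (signal 126, with 58.5 and 60.7 in the ranked lists of replicates 1 and 2), dhs-11/orc-1 (105, with 43.0 and 57.6), where orc-1 encodes the largest subunit of the origin recognition complex, and ndua-13/kbp-5 (100.3, with 46.4 and 46.3). The narrowest pair with a site was F32D8.14/F32D8.5, with starts 12 bp apart, and its peak of 136 (67.0 and 70.4) spanned both starts.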
